A study of Mus musculus with 16 samples.

Results

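Fibronectin, thrombospondin and other proteins that shape how cells hold to the matrix around them, together with transcription factors that drive cells towards a mesenchymal state, were followed in lung endothelial cells of tumour-bearing mice. The 9 genes were Fn1, Tgfbi, Thbs1, Sparc, Sparcl1, Spon2, Timp1, Snai1 and Zeb2, out of 17715 entries of the expression table. They were selected by name from the measured values of these same libraries, with results at all time points known. Their values are therefore given as a description, without a test. Lung endothelial cells, which line the blood vessels of the lung, were sorted by fluorescence-activated cell sorting from female C57BL/6N mice. The tumours came from the mouse line Lewis lung carcinoma, placed under the skin (1 mio cells). The 4 groups were mice without a tumour (d0, described as wild-type), mice with a primary tumour (d15), mice after its resection (d22) and mice with metastases (d36). No genetic change or treatment other than tumour and resection is named for any group. Each group had 4 libraries, which the submitters call independent biological replicates. By the titles, the d0 libraries are replicates 1, 2, 3 and 4, the d15 libraries 3, 4, 5 and 6, the d22 libraries 1, 4, 5 and 6 and the d36 libraries 1, 7, 8 and 9. One library, d36 replicate 1, is titled day 29 but has d36 as its time point, which was followed. The sources used here do not give the age of the mice, the sort antibodies or whether animals were pooled. Expression is given as RPKM, reads per kilobase of transcript per megaread, and levels are listed in the order of the replicate numbers above.

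Matricellular proteins are secreted into the matrix, where they modulate adhesion, growth factor activity and matrix assembly more than they build it. Fibronectin is bound by integrins and is deposited early in wounds and at sites of vessel growth. In endothelial-to-mesenchymal transition, endothelial cells lose junction and vessel-specific genes and gain matrix and contractile genes under TGF-beta, with Snail and ZEB proteins among the repressors that act on E-box DNA.

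Approximate depth, read from the steps between low RPKM values, ran from 93.7 to 150.8 megareads per library, and the libraries of d36 agreed less with each other (Pearson r across genes 0.92 to 0.984) than those of d0 (0.98 to 0.99). Endothelial identity was checked with 10 markers, including Pecam1, Cdh5 and Kdr. All 10 were in the table, and their summed level was 4050 to 4670 RPKM at d0 and 2870 to 3450 RPKM at d36. Transcripts of other cells were also present at d36, to a different degree in each library. A carcinoma list held 9 transcripts that carcinoma lines express or that an earlier account of these data found with metastases. It was thus partly chosen from these libraries, and no test of it is given. It included Rhox5, 3 transcripts that lung epithelium also makes and 1 that dividing cells also make. Its summed level was 415, 299, 246.5 and 26.1 RPKM in d36 replicates 1, 7, 8 and 9, against 4.03 to 6.77 RPKM at d0. A list of 12 cell cycle genes summed to 146, 102, 108 and 29.5 RPKM, against 16.1 to 18.4 RPKM at d0, and 8 of 8 tested ones passed as higher. For fibroblast markers, of which 8 of 10 were in the table and 3 were tested, the sums were 43.6, 33.3, 45.9 and 4.98 RPKM, against 3.33 to 5.48 RPKM at d0. One of these 3 passed as higher (1 of 3). Of the macrophage and monocyte markers, 6 of 8 tested ones passed as higher, and the integrin gene Itgam was listed at 0 in all 4 d0 libraries and at 1.03 to 3.51 RPKM at d36. Their sum, 320 to 1570 RPKM at d36 and 169 to 3850 RPKM at d0, was carried mainly by the antigen presentation gene Cd74. These marker passes are for d36 minus d0 at an adjusted p under 0.05 by limma. There 24% of the 14303 tested entries passed in either direction, 2376 of them as higher. Some markers, such as Itgam, passed the filter on low values (at least 1 RPKM in at least 4 libraries) through d36 alone. Nothing is therefore read from the marker counts. Pericyte and smooth muscle markers (5 of 10 in the table) summed to 11.8 to 22.8 RPKM at d36 and 9.35 to 15.6 RPKM at d0. Lung epithelial markers summed to 458 to 1130 RPKM at d36 and 779 to 1960 RPKM at d0, and the 2 mesothelial markers in the table to 1.87 to 11.8 and 1.02 to 2.5 RPKM. Replicate 9 thus had the lowest carcinoma, fibroblast and cell cycle sums of the 4 d36 libraries. In bulk RNA, more cells of a type and more RNA per cell cannot be told apart.

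Promoter sequences, the 250 bases before the annotated start (RefSeq, GRCm38.p6), matched 5 of the 9 genes by symbol: Snai1, Zeb2, Tgfbi, Sparc and Timp1. No promoter entry was matched for Fn1, Thbs1, Sparcl1 or Spon2. Shown are the 3 genes that were high in the same d36 libraries, Snai1, Tgfbi and Timp1, and Sparc, whose groups overlapped throughout. Zeb2, with several starts, is not shown. Each runs 5′ to 3′ on the gene's own strand, and capitals mark the motif matches. They lie at chr2:167537945-167538194 on the plus strand (Snai1), chr13:56609336-56609585 on the plus strand (Tgfbi), chrX:20869916-20870165 on the plus strand (Timp1) and chr11:55420081-55420330 on the minus strand (Sparc).
Snai1: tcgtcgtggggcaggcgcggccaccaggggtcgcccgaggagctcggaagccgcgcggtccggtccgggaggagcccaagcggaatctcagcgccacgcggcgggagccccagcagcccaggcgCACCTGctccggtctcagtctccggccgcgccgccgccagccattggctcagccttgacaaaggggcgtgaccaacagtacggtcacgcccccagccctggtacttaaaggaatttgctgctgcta
Tgfbi: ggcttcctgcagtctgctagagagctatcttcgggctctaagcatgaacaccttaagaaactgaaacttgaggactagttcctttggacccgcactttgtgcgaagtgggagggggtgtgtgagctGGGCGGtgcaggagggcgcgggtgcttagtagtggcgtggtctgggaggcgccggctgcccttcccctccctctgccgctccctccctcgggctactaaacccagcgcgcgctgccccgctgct
Timp1: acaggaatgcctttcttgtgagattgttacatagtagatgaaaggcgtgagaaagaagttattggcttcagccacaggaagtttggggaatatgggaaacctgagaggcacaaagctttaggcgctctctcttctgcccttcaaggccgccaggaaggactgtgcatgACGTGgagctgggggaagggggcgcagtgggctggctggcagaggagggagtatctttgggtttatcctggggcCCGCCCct
Sparc: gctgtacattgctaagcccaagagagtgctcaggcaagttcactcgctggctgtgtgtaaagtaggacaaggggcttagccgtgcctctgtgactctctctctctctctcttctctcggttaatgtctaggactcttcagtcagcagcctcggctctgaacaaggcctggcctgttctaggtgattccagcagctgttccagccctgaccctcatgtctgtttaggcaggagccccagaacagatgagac
The motifs searched on both strands were the AP-1 site TGACTCA, the STAT site TTCNNNGAA, the E2-box CACCTG, the hypoxia response core ACGTG and the GC box GGGCGG. Snai1 had 1 E2-box, 126 to 121 bases before its start, and such a box was found in 17.2% of 32817 RefSeq promoter windows of this length. Tgfbi had 1 GC box, 124 to 119 bases before the start, a motif found in 32.7% of windows. In Timp1 the hypoxia core lay 82 to 78 bases before the start and a GC box 8 to 3 bases before it, and the core was found in 16.6% of windows. The AP-1 site, in 4.46% of windows, and the STAT site, in 7.01%, did not match in these 4 windows, and Sparc held none of the 5 motifs. No motif overlapped another, and none was shared by all 3 genes that were high in the same libraries.

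Fn1 was nearly silent until d36 and then higher in all 4 libraries. Its gene (identifier 14268) lies on chromosome 1, 71585473 to 71653280, and encodes fibronectin, the main integrin-binding glycoprotein of provisional matrix. Its level was 0.0458, 0.0954, 0.0406 and 0.0419 RPKM at d0 and 0.0223, 0.061, 0.0727 and 0.178 RPKM at d15. At d22 it was 0.248, 0.151, 0.106 and 0.106 RPKM, and at d36 it was 5.76, 4.12, 5.27 and 1.1 RPKM. Every d36 library lay above every earlier library, and the lowest d36 value belonged to replicate 9. The d22 libraries did not overlap those of d0 either, although all 8 were under 0.25 RPKM. Mean Fn1 was 4.06 ± 2.09 RPKM (SD, n = 4) at d36 and 0.0559 ± 0.0264 RPKM (SD, n = 4) at d0, a ratio of 72.6. On the log2(RPKM + 1) scale used for all differences below, which understates changes of low genes, d36 minus d0 was 2.13 ± 0.245 (SE). Approximate read numbers, from an annotated length since the authors' lengths are unknown, were 36 to 85 at d0 and 1162 to 7216 at d36. In the authors' deposited table the Fn1 log2 fold change at d36 was 5.86, with no comparison group named. Without d36 replicate 9 the log2 difference was 2.51, and without replicate 1 it was 1.95. The carcinoma, fibroblast and cell cycle sums were lowest in the same replicate as Fn1, and their part in its level was not tested. Only the 4 d36 libraries took Fn1 past the filter on low values (at least 1 RPKM in at least 4 libraries), so it had to differ there.

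Tgfbi was the other matrix gene with a late level of this kind. It encodes a secreted adaptor, induced by TGF-beta, that links integrins and collagen, and it lies on chromosome 13, 56609586 to 56639359. Its levels were 1.43, 1.36, 2.21 and 2.17 RPKM at d0 and 1.33, 1.98, 1.95 and 0.882 RPKM at d15. They were 0.901, 1.69, 1.5 and 1.13 RPKM at d22 and 15.5, 24.6, 15.7 and 2.62 RPKM at d36. The first 3 groups overlapped throughout, while all 4 d36 libraries were higher than any of these 12, replicate 9 by the smallest margin. The mean at d36 was 14.6 ± 9.05 RPKM (SD, n = 4) against 1.8 ± 0.462 RPKM at d0, a ratio of 8.14, and the log2 difference was 2.19 ± 0.4 (SE). Without replicate 9 it was 2.79. As for Fn1, the part of the other cells' transcripts in this level was not tested.

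**Figure D1:**
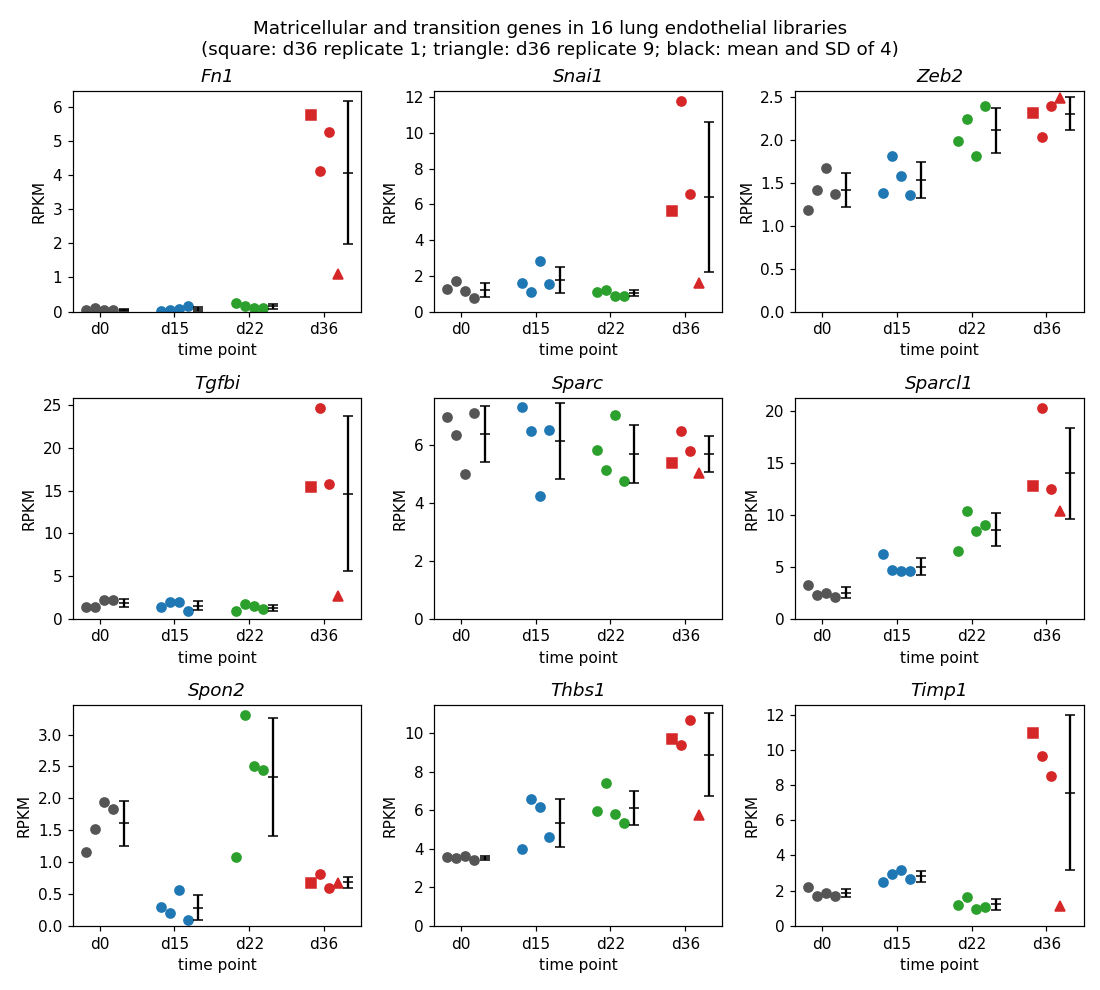
RPKM of the 9 genes (y axes, each on its own linear scale from 0) at the 4 time points (x axis), with 1 point per library and the mean and SD of 4 libraries in black. Fn1, Snai1, Tgfbi and Timp1 are high at d36 in the square (replicate 1) and both circles and lowest in the triangle (replicate 9), Sparcl1 steps up at each time point, and Spon2 is low at d15 (mean 0.288 RPKM) and d36 (0.687 RPKM).

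Thbs1 was above its d0 level in every library of the 3 later time points. It encodes thrombospondin 1, an inhibitor of vessel growth that binds CD36 and CD47 and can activate latent TGF-beta, and lies on chromosome 2, 118111876 to 118127133. The d0 libraries were tightly grouped at 3.56, 3.51, 3.63 and 3.42 RPKM, and those of d15 read 3.99, 6.58, 6.16 and 4.63 RPKM. At d22 Thbs1 stood at 5.96, 7.42, 5.78 and 5.35 RPKM, and at d36 at 9.72, 9.41, 10.7 and 5.74 RPKM. No d0 library reached the lowest library of any later group, whereas d15 overlapped d22 and d22 overlapped d36 through replicate 9. Mean levels were 3.53 ± 0.0904, 5.34 ± 1.23, 6.13 ± 0.895 and 8.89 ± 2.17 RPKM (SD, n = 4) in time order. The log2 differences from d0 were 0.47 at d15, 0.65 at d22 and 1.1 at d36, each ± 0.165 (SE). Platelets carry thrombospondin 1, and of their markers 3 of 10 were in the table, with sums of 4.12, 11.5, 2.93 and 1.01 RPKM in the d36 libraries and 0.326 to 0.676 RPKM at d0. Their part in the Thbs1 level was not tested.

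Sparcl1 was the gene with the most regular course. It encodes a secreted relative of SPARC, also called hevin, which lowers cell adhesion, and lies on chromosome 5, 104079108 to 104114088. Its level was 3.23, 2.3, 2.46 and 2.11 RPKM at d0 and 6.2, 4.68, 4.65 and 4.58 RPKM at d15. It was 6.5, 10.35, 8.42 and 9.01 RPKM at d22 and 12.8, 20.3, 12.5 and 10.4 RPKM at d36. No group overlapped the next one, although the highest d22 library (10.35 RPKM) lay just under the lowest d36 library (10.4 RPKM). The means were 2.53 ± 0.492, 5.03 ± 0.782, 8.57 ± 1.6 and 14 ± 4.35 RPKM (SD, n = 4), which are ratios to d0 of 1.99, 3.4 and 5.55. The log2 differences from d0 were 0.78, 1.44 and 2.06, each ± 0.175 (SE), and that of d22 minus d15 was 0.66. Replicate 9 was again the lowest d36 library, but at 10.4 RPKM it was not far from replicate 8 (12.5 RPKM), and without it the difference from d0 was 2.18.

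Sparc itself did not follow its relative. It encodes the collagen-binding matricellular protein osteonectin and lies on chromosome 11, 55394159 to 55420080. Its levels were 7, 6.37, 5.01 and 7.13 RPKM at d0 and 7.31, 6.51, 4.24 and 6.52 RPKM at d15. At d22 it read 5.82, 5.16, 7.04 and 4.78 RPKM, and at d36 5.41, 6.49, 5.81 and 5.05 RPKM. All 4 groups overlapped, with d36 replicate 9 in the range of the others. The log2 differences from d0 were -0.06, -0.14 and -0.14 at d15, d22 and d36, each within its SE of 0.149. At d0 Sparc was the most abundant of the 9 genes per kilobase (6.38 ± 0.968 RPKM, SD, n = 4), and at d36 the mean levels of Tgfbi, Sparcl1, Thbs1, Timp1 and Snai1 were above its 5.69 ± 0.616 RPKM.

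Spon2 ran low, high and low again after d0. It encodes spondin 2, also called mindin, a secreted matrix protein that binds integrins and microbial surfaces, and lies on chromosome 5, 33213518 to 33218254. Its levels were 1.15, 1.52, 1.94 and 1.83 RPKM at d0 and 0.303, 0.195, 0.563 and 0.0909 RPKM at d15. After resection, at d22, they were 1.08, 3.3, 2.5 and 2.45 RPKM, and at d36 they were 0.669, 0.808, 0.6 and 0.669 RPKM. Every library of d15 and of d36 was below every library of d0 and of d22, and d0 and d22 overlapped through d22 replicate 1. Mean Spon2 was 5.59 times lower at d15 (0.288 ± 0.203 RPKM, SD, n = 4) than at d0 (1.61 ± 0.355 RPKM), a log2 difference of -1.02 ± 0.178 (SE). From d15 to d22 the mean was 8.1 times higher, at 2.33 ± 0.922 RPKM, a log2 difference of 1.34. At d36, with 0.687 ± 0.0874 RPKM, it was 3.4 times lower than at d22, and the log2 difference from d0 was -0.62. The spread among the d36 libraries was small, and replicate 9 (0.669 RPKM) read the same as replicate 1.

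Timp1, an inhibitor of matrix metalloproteinases on chromosome X, 20870166 to 20874737, stood in the opposite order to Spon2 until d22. Its levels were 2.18, 1.71, 1.88 and 1.69 RPKM at d0 and 2.47, 2.95, 3.17 and 2.64 RPKM at d15. They were 1.21, 1.65, 0.94 and 1.09 RPKM at d22 and 11, 9.65, 8.51 and 1.11 RPKM at d36. All d15 libraries were above all d0 libraries, and all d22 libraries were below them. At d36 the first 3 libraries were far above every other library, while replicate 9 was at the level of d22 and under all 4 d0 libraries. Means were 1.87 ± 0.227, 2.81 ± 0.313, 1.22 ± 0.304 and 7.56 ± 4.41 RPKM (SD, n = 4) in time order. The log2 difference of d36 from d0 was 1.32 ± 0.366 (SE), and 1.9 without replicate 9. The carcinoma list sum of that replicate was 26.1 RPKM, against 246.5 RPKM or more in the other 3, and its part in the Timp1 level was not tested.

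Snai1 encodes the zinc finger repressor Snail and lies on chromosome 2, 167538195 to 167542814. Its levels were 1.29, 1.73, 1.14 and 0.755 RPKM at d0 and 1.59, 1.12, 2.82 and 1.52 RPKM at d15. They were 1.12, 1.21, 0.901 and 0.896 RPKM at d22 and 5.63, 11.8, 6.57 and 1.6 RPKM at d36. The first 3 groups overlapped, and d36 replicate 9 (1.6 RPKM) fell inside the range of d0. Mean Snai1 was 6.4 ± 4.19 RPKM at d36 and 1.23 ± 0.402 RPKM at d0 (SD, n = 4), a ratio of 5.21 and a log2 difference of 1.54 ± 0.325 (SE). Without replicate 9 that difference was 1.97.

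Zeb2, on chromosome 2, 44983512 to 45117442, encodes the second E-box repressor of the set and had a smaller, earlier difference. It read 1.19, 1.42, 1.67 and 1.37 RPKM at d0 and 1.38, 1.81, 1.59 and 1.36 RPKM at d15. It was 1.99, 2.25, 1.81 and 2.4 RPKM at d22 and 2.31, 2.04, 2.39 and 2.49 RPKM at d36. Every d22 and d36 library was above every d0 library, d22 and d36 overlapped, and replicate 9 was the highest of d36. The log2 differences from d0 were 0.37 at d22 and 0.46 at d36, each ± 0.103 (SE). The Zeb2 transcript is the longest of the 9 (9124 bases) and has the lowest GC content (40.6%), and longer and GC-poorer transcripts were higher at d22 across the table (Spearman rho 0.409 with length and -0.358 with GC over 9610 entries). With that trend removed, the Zeb2 difference was -0.07 at d22 and 0.02 at d36, so its direction depends on this choice.

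**Figure D2:**
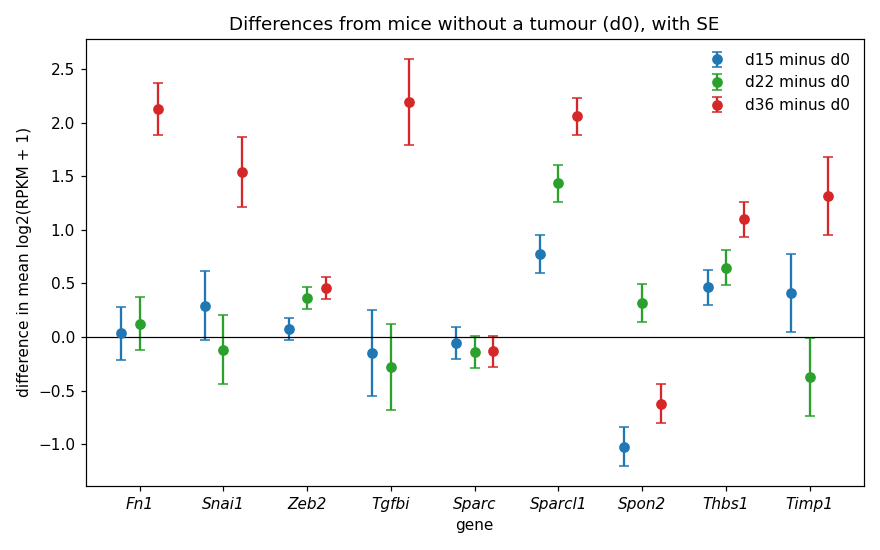
Difference in mean log2(RPKM + 1) from d0 (y axis) for the 9 genes (x axis) at d15 (blue), d22 (green) and d36 (red), with bars of 1 SE from the fit over all 16 libraries. The d36 points of Tgfbi (2.19), Fn1 (2.13) and Sparcl1 (2.06) are the highest, Sparc stays at 0 within its SE, and Spon2 is at -1.02 at d15.

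Against the whole table, the shares were as follows. At d15, 2 of the 9 genes (Sparcl1 higher, Spon2 lower) were past an adjusted p of 0.05 against d0, where 1.18% of the 14303 tested entries were, and 4 had libraries that did not overlap, against 12.3% of entries. At d22 it was 3 genes (Zeb2, Sparcl1 and Thbs1) against 15.2% of entries, and 5 did not overlap d0, against 26.5%. At d36 it was 8 genes, all but Sparc, against 24% of entries, and 6 did not overlap d0, against 21.4%. From d15 to d22, 2 genes (Sparcl1 and Spon2) passed, against 3.06% of entries, and 4 did not overlap, against 15%. From d22 to d36 it was 6 genes, against 11.8%, and 5 without overlap, against 13.6%. Since results of these contrasts were known when the genes were chosen, nothing is read from these counts. The median log2 difference of the 9 was 0.07 at d15, 0.12 at d22 and 1.32 at d36, beside -0.02, 0.02 and 0.04 over all tested entries. The 3 contrasts share the d0 libraries.

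Replicate 9 was the lowest of the 4 d36 libraries for 7 of the 9 genes, all but Zeb2 and Spon2, by gaps of very different size. Relative to the d0 mean, Fn1 in replicates 1, 7, 8 and 9 was at 6.69, 6.2, 6.56 and 4.3 on the log2 scale of plain RPKM ratios. For Tgfbi these ratios were 3.11, 3.78, 3.13 and 0.55. For Timp1 they were 2.56, 2.37, 2.19 and -0.74, and Timp1 alone was above the d0 mean in the other 3 libraries and below it in replicate 9. Thbs1 stood between, at 1.46, 1.42, 1.6 and 0.7. For Sparcl1, at 2.34, 3.01, 2.31 and 2.04, and Sparc, at -0.24, 0.03, -0.13 and -0.34, replicate 9 was lowest by a small gap, and for Zeb2, at 0.71, 0.53, 0.76 and 0.82, it was highest. The same ratio for the carcinoma list was 6.36, 5.88, 5.6 and 2.36, for the fibroblast list 3.42, 3.03, 3.5 and 0.29, for the pericyte and smooth muscle list 0.89, 0.42, 0.34 and -0.06 and for the pan-endothelial list -0.57, -0.4, -0.31 and -0.32. For the macrophage and monocyte list it was -1.14, -1.88, 0.42 and -0.44, lowest in replicate 7.

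**Figure D3:**
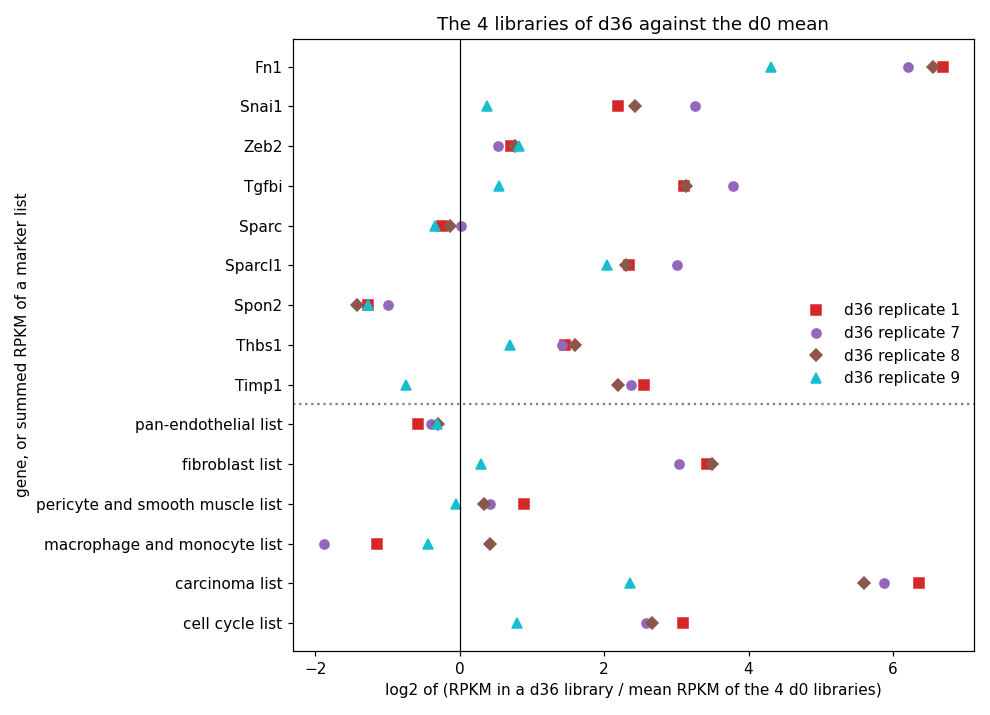
Log2 ratio of each d36 library to the d0 mean in RPKM (x axis) for the 9 genes and, under the dotted line, for summed marker lists (y axis). The markers stand for d36 replicates 1, 7, 8 and 9. Replicate 9 (triangle) is to the left of the other 3 by the widest gaps for Fn1, Snai1, Tgfbi and Timp1 and for the fibroblast, carcinoma and cell cycle lists. The gaps are smaller for Thbs1, Sparcl1, Sparc and the pericyte list. Replicate 9 is not leftmost for Spon2, Zeb2, the macrophage and monocyte list or the pan-endothelial list.

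Genes with the most similar course over the 16 libraries were found by Pearson's r of log2(RPKM + 1), given as a description because the libraries share groups and depth. For Fn1 they were Mela (r = 0.996) and Thbs2 (0.995), and over the 12 libraries without d36 the r was 0.611 and 0.69. For Tgfbi they were S100a4 and Itgb7 (both 0.971), and without d36 r was -0.195 and 0.328, so the likeness lay in the d36 libraries. Snai1 was most like Rad18 (0.958) and Igfbp6 (0.955), and Timp1 was most like the ferritin gene Fth1 (0.952) and the tubulin gene Tuba4a (0.946). Sparcl1 was most like Herc4 (0.975) and Cpne1 (0.965), and these held without d36 (0.949 and 0.973). Zeb2 was most like Rsbn1 (0.937) and Dennd4c (0.933), with 0.915 and 0.921 without d36. Thbs1 had an r of 0.93 with Zzz3, Sparc was most like Rab26 (0.843) and Pias3 (0.802), and Spon2 most like D630041G03Rik (0.794) and Gucy1a3 (0.785).

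Other genes of the same biology were taken from 7 lists, of which 90 of 121 genes were in the table and 73 were tested with limma and Benjamini-Hochberg adjustment over all 14303 entries (two-sided, n = 4 libraries per group). Against d0, 2 of 73 passed at d15 (1 higher, 1 lower), 16 at d22 (11 higher, 5 lower) and 31 at d36 (24 higher, 7 lower), which is 2.74%, 21.9% and 42.5% of the genes tested, beside 1.18%, 15.2% and 24% of all tested entries. From d15 to d22, 3 passed, all higher, and from d22 to d36 11 passed, 9 of them higher (4.11% and 15.1%, beside 3.06% and 11.8% of all tested entries). The 17 listed genes in the table that were not tested had not reached 1 RPKM in 4 libraries. All 17 had a higher mean at d36 (0.541 to 6.82 RPKM) than at d0. The same share over all untested entries was not taken, so nothing is read from this count. With no filter on low values, 4254 entries of the whole table passed for d36 minus d0, 73.6% of them as higher. The median log2 difference of the tested genes from d0 was 0.11, 0.19 and 0.36 in time order. These lists were written with earlier results of these data known. Of the genes that passed at d36, Thbs2, S100a4 and Tgfb3 were past the filter on low values through d36 alone, as Fn1 was. They had to differ there, and the d36 counts include them. The passes at d15 and from d15 to d22 were not stable: none of the 2 and none of the 3 passed in all 8 fits that leave out 1 library of the groups compared. At d22, 7 of 16 passed in all 8 such fits and at d36 23 of 31.

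Among the other matricellular genes, 8 were tested, and 1 passed at d22 and 2 at d36 (25%, near the 24% of all entries). Thbs2, a second thrombospondin, rose from 0.349 ± 0.112 RPKM at d0 to 12.4 ± 7.56 RPKM at d36 (SD, n = 4), a log2 difference of 3.07 ± 0.336 (SE). Only the 4 d36 libraries took Thbs2 past the filter on low values, so it had to differ there and its p is not given. Its 4 d36 libraries read 21.1, 10.7, 14.7 and 3.06 RPKM, all above the highest earlier library (0.892 RPKM) and, like Fn1, lowest in replicate 9. Tnxb, which encodes the matrix glycoprotein tenascin X, fell from 1.51 ± 0.529 RPKM to 0.616 ± 0.0544 RPKM at d22 (adjusted p = 0.0263) and to 0.729 ± 0.332 RPKM at d36 (adjusted p = 0.0344), both by limma. The Tnxb pass at d22 was lost without d0 replicate 1, 2 or 3 or d22 replicate 4, 5 or 6 (adjusted p up to 0.0848), and that at d36 without d0 replicate 1, 2 or 3 or d36 replicate 1, 7 or 8 (up to 0.113). The latter was also lost with a pseudocount of 0.1 (0.0508) and with only the 2 groups fitted (0.086). No gene of this list passed at d15, where 1 had an unadjusted p under 0.05.

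Among adhesion receptors of fibronectin, thrombospondin and SPARC, 10 were tested, 3 passed at d22 and 5 at d36, all 5 higher. These are 30% and 50%, beside 15.2% and 24% of all tested entries. Cd36, a receptor of thrombospondin 1 and of fatty acids, rose from 128 ± 16 RPKM at d0 to 282 ± 34.3 RPKM at d22 (adjusted p = 0.00178) and was at 284 ± 90.9 RPKM at d36 (adjusted p = 0.000925, limma, n = 4). All 8 of these libraries were above all d0 libraries, and d36 replicate 9 was the highest of them, at 419 RPKM. Cd44, the hyaluronan receptor, rose to 18.8 ± 7.89 RPKM at d36 from 6.76 ± 0.627 RPKM at d0 (adjusted p = 0.000732, limma). The Cd44 pass at d22 (adjusted p = 0.0437, limma) held in 0 of the 8 fits without a library (up to 0.11). Sdc4, which encodes the fibronectin co-receptor syndecan 4, read 39.3, 31.3, 26.9 and 8.81 RPKM at d36 and 7.45 ± 1.21 RPKM at d0 (SD, n = 4), with an adjusted p of 0.00167 by limma, and replicate 9 lay within the d0 range. Itgb5, an integrin subunit, fell at d22 from 4.9 ± 2.48 to 1.66 ± 0.244 RPKM (adjusted p = 0.025), a pass lost without d0 replicate 1 or 2 or d22 replicate 6 (adjusted p up to 0.0767) and by correction for length and GC (0.0757). The count of 0 passes at d15 by limma stood beside 4 genes with an unadjusted p under 0.05.

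Of the transition factors other than Snai1 and Zeb2, 4 were tested and Tcf4 alone passed, at d22 and d36 (25%, near the 24% of all entries at d36). Tcf4 encodes an E-box-binding factor, and rose from 13 ± 2.91 RPKM at d0 to 21.4 ± 1.66 RPKM at d22 (adjusted p = 0.0133) and 23.8 ± 7.15 RPKM at d36 (adjusted p = 0.00356, limma, n = 4). With the length and GC trend removed, as for Zeb2, neither held for Tcf4, with differences of 0.28 (adjusted p = 0.277) and 0.38 (adjusted p = 0.0913). Twist2 and Prrx1, the other factors of this list in the table, had not reached 1 RPKM in 4 libraries and were not tested. They are named after their values were seen. Prrx1, a homeobox factor of mesenchymal cells, read 2.1, 1.87, 2.24 and 0.258 RPKM at d36, all above its highest earlier library (0.111 RPKM). Twist2 read 1.24, 0.9, 0.561 and 0.083 RPKM at d36 against 0.0361 RPKM or less at d0, and both were lowest in replicate 9, as the fibroblast and carcinoma sums were, whose part in these levels was not tested.

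Of 7 tested mesenchymal genes, 2 passed at d36 (28.6%, near the 24% of all entries). S100a4, a calcium-binding protein of motile cells that macrophages and tumour cells also make, rose from 0.0987 ± 0.0875 to 46.1 ± 37.4 RPKM (SD, n = 4). No p is given, because S100a4 passed the filter on low values through its 4 d36 libraries alone and had to differ there. Its d36 libraries read 53.9, 92.8, 34.1 and 3.6 RPKM. Tpm1, which encodes the actin-binding protein tropomyosin 1, rose from 25.8 ± 2.71 to 128 ± 76.8 RPKM at d36 (adjusted p = 0.00176, limma). Its d36 libraries read 219.7, 132.6, 127.4 and 31.6 RPKM, and replicate 9 lay within the d15 range (up to 35.55 RPKM). The count of mesenchymal genes past the test was 0 at d15 and at d22 by limma, with 0 and 1 at an unadjusted p under 0.05. The collagen genes Col1a1 and Col3a1, which fibroblasts make in bulk, averaged 2.88 and 6.82 RPKM at d36 against 0.917 and 0.305 RPKM at d0. Their lowest d36 libraries held 0.347 and 0.484 RPKM. Col1a1 did not pass at d36 (adjusted p = 0.122, limma), and Col3a1 was not tested.

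Endothelial identity genes were all in the table and all 13 were tested. At d36, 4 fell and 1 rose (38.5%, beside 24% of all tested entries). Tie1, an endothelial receptor kinase, fell from 444 ± 26.6 to 276 ± 27.8 RPKM at d36 (log2 difference -0.69 ± 0.115 SE, adjusted p = 0.000603, limma, n = 4). Robo4, a receptor that stabilises vessels, fell from 143 ± 8.49 to 97 ± 7 RPKM at d22 (adjusted p = 0.00928, and 0.0904 with quantile normalization, which ended the call) and was at 88.6 ± 14.2 RPKM at d36 (adjusted p = 0.0013). Fli1, a transcription factor of endothelial genes, went the other way, from 29.5 ± 3.49 to 51.1 ± 8.83 RPKM at d22 (adjusted p = 0.0025) and 44.9 ± 6.63 RPKM at d36 (adjusted p = 0.00686), and with the length and GC trend removed its d36 pass was lost (adjusted p = 0.0506). Vwf, which encodes von Willebrand factor, was the single identity gene past the test at d15, at 97.5 ± 26.4 against 44 ± 3.43 RPKM at d0 (adjusted p = 0.0261), and this held in 1 of the 8 fits without a library, with an adjusted p of up to 0.0839 (without d15 replicate 5), and not with the length and GC trend removed (0.0516).

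Proteases and their inhibitors, the list to which Timp1 belongs by function, had 15 tested genes, of which 4 passed at d22 and 7 at d36. These are 26.7% and 46.7%, beside 15.2% and 24% of all tested entries. Correction for length and GC ended the d36 calls of Adam10 (limma adjusted p 0.207), Adam17 (0.0958), Adamts9 (0.442), Timp3 (0.0867) and Serpine2 (0.0733). Plau and Mmp15 were not among the lost calls. Of the 9610 entries so corrected, 21.6% passed at d36. Plau, the urokinase plasminogen activator, had levels of 2.69 ± 0.666, 1.05 ± 0.297, 1.14 ± 0.476 and 5.56 ± 1.56 RPKM (SD, n = 4) in time order. It fell at d15 (adjusted p = 0.0458) and was lower at d22 (0.0125), and it rose at d36 against d0 (0.00642) and against d22 (0.000208), all adjusted p by limma. All 4 d36 libraries of Plau, replicate 9 included at 4 RPKM, were above all others. The Plau pass at d15 held in 1 of 8 fits without a library (adjusted p up to 0.134, without d0 replicate 3) and was lost with no filter on low values (0.065), and that at d22 was lost without d22 replicate 6 (0.0511). Adam10, a membrane sheddase, rose from 0.952 ± 0.12 RPKM at d0 to 2.05 ± 0.147 RPKM at d22 (adjusted p = 0.000891, limma) and was at 1.75 ± 0.224 RPKM at d36 (adjusted p = 0.00208), where removing the length and GC trend ended the call (adjusted p = 0.207). Adamts9, a secreted proteoglycan protease, rose from 1.18 ± 0.234 to 2.75 ± 0.529 RPKM at d22 (adjusted p = 0.0022). Mmp15, a membrane metalloproteinase, fell from 15.2 ± 1.02 to 6.74 ± 3.43 RPKM at d36 (adjusted p = 0.00961).

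Of 16 tested genes of the TGF-beta pathway, 0 passed at d15 by limma (4 at an unadjusted p under 0.05). At d22, 3 passed (18.8%, near the 15.2% of all entries), and at d36 9 passed (56.2%, beside 24%). Correction for length and GC ended the d36 calls of Smad2 (limma adjusted p 0.322), Skil (0.0563), Smad4 (0.101), Tgfbr1 (0.994) and Acvrl1 (0.0528). Tgfb3, Ltbp1, Tgfb1 and Smad3 were not among the lost calls. Of the 9610 entries so corrected, 21.6% passed at d36. The ligand gene Tgfb3 rose from 0.501 ± 0.0931 to 4.1 ± 1.97 RPKM at d36 (log2 difference 1.65 ± 0.248 SE, n = 4), and its d36 libraries read 5.13, 5.04, 5.08 and 1.15 RPKM. Tgfb3 too passed the filter on low values through d36 alone, so it had to differ there and its p is not given. Ltbp1, which holds TGF-beta latent in the matrix, rose from 1.06 ± 0.245 to 5.39 ± 2.98 RPKM at d36 (adjusted p = 0.002, limma), with replicate 9 at 1.29 RPKM, within the d22 range. Its relative Ltbp4 differed in course, at 13.2 ± 3.31 RPKM at d22 against 7.22 ± 0.979 RPKM at d0 (adjusted p = 0.0167) and 6.4 ± 0.591 RPKM at d36 (adjusted p = 0.00786 against d22). The Ltbp4 pass at d22 was lost without d0 replicate 1 or d22 replicate 1 or 4 (adjusted p up to 0.0539). The signal carrier Smad2 rose from 6.84 ± 0.383 to 10.1 ± 1.08 RPKM at d36 (adjusted p = 0.00371), a call lost with the length and GC trend removed (adjusted p = 0.322). Skil, a repressor of SMAD signalling, rose from 16 ± 3.19 to 30.1 ± 2.74 RPKM at d22 (adjusted p = 0.00793), which the length and GC correction ended (0.0832). The receptor gene Tgfbr1 rose at d22 from 2.4 ± 0.124 to 3.49 ± 0.362 RPKM (adjusted p = 0.0225), a pass lost without d0 replicate 3 or 4 or d22 replicate 1 or 4 (up to 0.0644), and with the length and GC trend removed its difference was 0.1 at d22 (adjusted p = 0.575) and -0.001 at d36. Quantile normalization also ended the Tgfbr1 call at d22 (0.054).

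**Figure D4:**
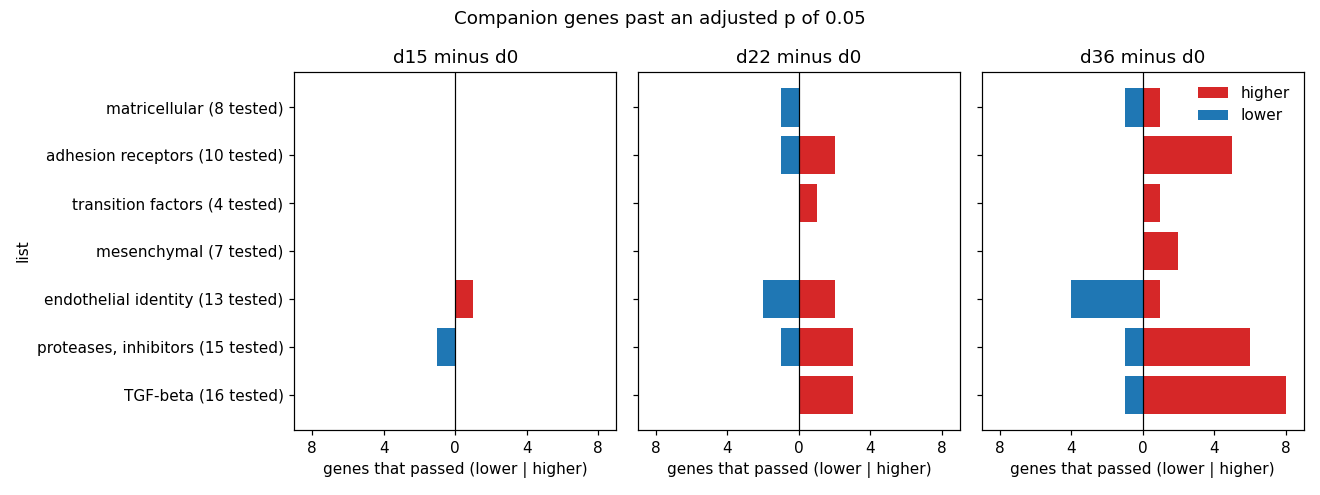
Number of genes of each list (y axis) past an adjusted p of 0.05 by limma against d0 (x axis; to the right of 0 higher, to the left lower) at d15, d22 and d36. Most passes are at d36, with 8 higher in the TGF-beta list, 6 higher among proteases and inhibitors and 4 lower among endothelial identity genes. Of all tested entries, 1.18%, 15.2% and 24% passed at d15, d22 and d36.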

How the data were processed

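The authors deposited 1 table of 17715 entries with an RPKM value per library, per the file headers, and log2 fold change and adjusted p-value columns for d15, d22 and d36 with no comparison group named, which were only quoted from the deposited table. The submitters' processing notes name STAR, DESeq2 and the build mm10. The annotation, the lengths behind RPKM and any filter are not stated there. Per the labels' protocols, a PicoPure kit gave the RNA and SMARTer Ultra Low chemistry the libraries, from 10 ng. Of the entries, 3443 have AK identifiers and 1461 Ensembl transcript identifiers, so reads of a gene could be split over entries, although 0 of the 1275 Ensembl entries matched to a gene belonged to one of the 9.

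The 9 genes, the 7 companion lists and the marker lists were chosen with earlier results of these data known. Values were analysed as log2(RPKM + 1). The filter kept 14303 entries that reached 1 RPKM in 4 or more of the 16 libraries, and all 9 genes passed, Fn1 through d36 alone. A limma fit (version 3.58.1, R 4.3.3) with an intensity trend covered the 4 groups with no covariate, two-sided, with Benjamini-Hochberg adjustment within each contrast at 0.05, and was tested on simulated data. Named companions are up to 3 genes per list and contrast with the smallest p among those that passed. Some genes that the naming rules pick are not reported here. The alternatives tried were pseudocount, filter, 2 scalings, no trend, array weights, a fit of only the 2 groups, a length and GC correction, a replicate block and leaving out each library. Reads were not recovered from RPKM for most entries, so no count test was run. Depths are approximate.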

Additional observations from a re-analysis of the deposited data

Results flagged for a closer look

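In groups of 4 libraries, a value far from the other 3 was looked for by Dixon's test in each of the 36 combinations of gene and group, where chance gives such a value in about 1 of 20 groups. There were 2. Fn1 was at 0.0954 RPKM in d0 replicate 2, against 0.0406 to 0.0458 RPKM in the other d0 libraries. Sparcl1 was at 6.2 RPKM in d15 replicate 3, against 4.58 to 4.68 RPKM in the other d15 libraries.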

How the results depend on the processing

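Of 765 alternative values for the 9 genes, 731 moved by less than the spread between replicates, 33 moved further and 1 reversed. The reversed value was Zeb2 at d22 minus d0, with the length and GC trend removed (-0.066 in place of 0.368). A change of sign in a contrast that had not passed was not counted as reversed. Such changes occurred for Fn1 at d15 minus d0 (-0.005 without d15 replicate 6, in place of 0.035). They also occurred for Sparc at d15 minus d0 (0.085 without d15 replicate 5, in place of -0.057). For Sparc at d36 minus d22 the value was -0.062 without d22 replicate 6, in place of 0.005. The number of companion genes past the test changed more. For d15 minus d0 (2 genes) it was 1 with no filter on low values, 7 with array weights, 7 with only the 2 groups, 1 with length and GC removed and 0 with the replicate block, and 0 to 1 without single libraries. For d22 minus d0 (16) it was 31, 30 and 10 with array weights, only the 2 groups and length and GC removed, and 11 to 13 without single libraries. For d36 minus d0 (31) it was 14 with the replicate block and 25 to 45 without single libraries, 45 being without d36 replicate 9. For d22 minus d15 (3) it was 6 with array weights, 0 with length and GC removed and 0 to 3 without single libraries. For d36 minus d22 (11) it was 23 with no filter, 22 with array weights, 7 with only the 2 groups and 10 to 23 without single libraries, 23 being without d36 replicate 9. The cause of these shifts was not tested. The split of higher and lower companions was 12 and 3 with quantile normalization and 9 and 6 with trimmed-mean scaling at d22 minus d0 (11 and 5 as reported), 8 and 8 with quantile normalization at d36 minus d22 (9 and 2 as reported) and 13 and 9 with length and GC removed at d36 minus d0 (24 and 7 as reported).

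The replicate numbers did not pair the samples: of 9 pairs with the same number, 2 had deviations correlated over 0.1 (range -0.111 to 0.216), against 26 of 87 pairs with different numbers, and for numbers 4, 5 and 6 of d15 and d22 no library correlated best with its own number. With the replicate block, 0, 17, 14, 4 and 10 companions passed in d15 minus d0, d22 minus d0, d36 minus d0, d22 minus d15 and d36 minus d22, where the d36 contrasts rest on the 1 shared number. Depth limits Fn1 at d0, d15 and d22, with approximately 17 to 222 reads per library.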
